A study of Mus musculus with 12 samples.

Results

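To determine how the genes of respiratory complex I were expressed in DCs with reduced PGC-1β, the rows of the count table that carry an *Nduf* subunit symbol were followed across all groups. The symbols *Ndufa*, *Ndufb*, *Ndufc*, *Ndufs* and *Ndufv* mark the nuclear-encoded subunits, and the *Ndufaf* assembly factors and pseudogene symbols ending in -ps were left out. Of 55471 genes in the table, 43 matched, and the 39 that had at least 10 counts in every library are described here. The other 4 were *Ndufb11b* with 0 counts in every library, *Ndufa11b* with 1 to 11, *Ndufs6b* with 1 to 11 and *Ndufb4c* with 1 to 9. The member nearest to the limit was *Ndufa4l2*, with 23 counts in its lowest library. The count limit was met in every group, so no member was kept through 1 group alone.

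The libraries came from mouse bone marrow-derived DCs, which were grown from C57BL/6 marrow with GM-CSF. All cultures, controls included, carried a retrovirus with a human CD8 reporter and were sorted on that reporter. In shControl cultures the shRNA it expressed was directed at firefly luciferase, which mice lack, and in sh*Ppargc1b* cultures it was directed at *Ppargc1b*, the gene of PGC-1β. Cells were left unstimulated or received IFN-β for 6 h, which made 4 groups of 3 libraries. The mice were adult females of a range of ages given for the study as a whole. The study made more than 1 *Ppargc1b* hairpin and names a default for most of its experiments, and the labels do not say which hairpin or how many mice stand behind each library. The p-values measure the spread between these libraries, which may be technical. As the RNA came from bulk cultures, fewer cells of a type and less RNA per cell cannot be told apart.

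Complex I is the NADH:ubiquinone oxidoreductase of the inner mitochondrial membrane and the entry point for electrons from NADH into the respiratory chain. Its matrix arm holds the N module, where NADH is oxidised, and the Q module, where electrons pass along iron-sulphur clusters to ubiquinone. Its membrane arm pumps protons and is built around subunits that the mitochondrial genome encodes. The core subunits are shared with bacteria and do the catalysis, and the accessory subunits surround them and are needed for assembly and stability. PGC-1β is a co-activator without DNA-binding activity of its own. It works through factors such as NRF1, GABP and the estrogen-related receptors, which are known to bind promoters of respiratory genes.

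Library totals ran from 49.9 to 77.7 M counts. *Ppargc1b* was at 33.4, 33.3 and 36.7 CPM (counts per 1000000, with library sizes scaled by TMM, the trimmed mean of M-values) in the unstimulated shControl libraries and at 18.6, 19.3 and 20.3 CPM in the unstimulated sh*Ppargc1b* libraries. Its knockdown thus amounted to -0.83 ± 0.10 on the log2 scale (SE, adjusted p = 3.2e-05). With IFN-β, it was at 31.4, 23.6 and 28.4 CPM in shControl and at 19.6, 15.5 and 20.9 CPM in sh*Ppargc1b* cells, with a log2 fold change of -0.57 ± 0.11 (adjusted p = 9.5e-04). The groups did not overlap in either state, and the exact two-sided permutation test gave p = 0.10, the smallest that 3 libraries against 3 allow. The transcript was lowered and still present in every knockdown library.

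Of the 39 members, 37 are complex I subunits. *Ndufa4* kept its name but is now assigned to complex IV, and *Ndufa4l2* is its paralog. The 37 subunits comprised 3 core subunits of the N module (*Ndufv1*, *Ndufv2*, *Ndufs1*), 4 core subunits of the Q module (among them *Ndufs3*, *Ndufs7* and *Ndufs8*), 7 accessory subunits of the N module, 2 of the Q module, 9 of the proximal membrane arm and 12 of the distal membrane arm. The genes were spread over 16 chromosomes. The row of *Ndufb1* is annotated in GENCODE M21 as *Ndufb1-ps*, a lncRNA from a bidirectional promoter, so counts without it are also given. Transcripts were short. The median length of the longest coding transcript (for *Ndufb1*, its noncoding transcript) was 934 bases, against 3094 bases over 13078 tested protein-coding genes, and 56.4% of members were under 1000 bases, against 5.74% of those genes. A protein-coding gene started head to head within 1000 bases of 9 of 38 protein-coding members (23.7%), against 10.2% of the tested protein-coding genes.

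Promoter stretches are shown for 4 members because they carry the recognition letters of the factors through which PGC-1β is known to act, or of other factors of housekeeping promoters. *Ndufv2* and *Ndufs8* are core subunits, *Ndufb6* is a distal arm subunit and *Ndufs5* is a proximal arm subunit. The sequences are from RefSeq on GRCm38.p6, read 5′ to 3′ on the gene's strand from 250 bases before the RefSeq start towards it, and annotated exon was left out. Capitals mark motif letters on either strand.

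Ndufv2, chr17:66101560-66101809, - strand: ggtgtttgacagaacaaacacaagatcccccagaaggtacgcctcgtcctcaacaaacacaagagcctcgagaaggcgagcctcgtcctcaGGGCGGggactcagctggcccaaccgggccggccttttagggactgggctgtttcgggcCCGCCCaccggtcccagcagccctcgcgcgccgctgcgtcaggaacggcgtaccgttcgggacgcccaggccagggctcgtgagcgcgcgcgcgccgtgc
Ndufs8, chr19:3912775-3913024, - strand: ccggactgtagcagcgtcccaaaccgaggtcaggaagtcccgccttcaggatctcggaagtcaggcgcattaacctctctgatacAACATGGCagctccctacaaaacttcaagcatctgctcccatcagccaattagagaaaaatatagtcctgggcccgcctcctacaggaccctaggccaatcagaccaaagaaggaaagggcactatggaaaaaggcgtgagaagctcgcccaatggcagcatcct
Ndufb6, chr4:40279422-40279671, - strand: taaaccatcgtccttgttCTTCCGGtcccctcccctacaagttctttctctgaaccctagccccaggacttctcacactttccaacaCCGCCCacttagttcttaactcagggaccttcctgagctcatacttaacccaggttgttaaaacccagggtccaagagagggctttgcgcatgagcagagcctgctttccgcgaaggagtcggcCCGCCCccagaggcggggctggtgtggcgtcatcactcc
Ndufs5, chr4:123718203-123718436, - strand: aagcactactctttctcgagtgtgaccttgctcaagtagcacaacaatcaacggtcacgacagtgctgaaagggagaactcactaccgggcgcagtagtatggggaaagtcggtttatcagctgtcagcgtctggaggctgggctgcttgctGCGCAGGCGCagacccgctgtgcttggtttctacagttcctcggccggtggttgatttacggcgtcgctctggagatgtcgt

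The capitals were SP1 letters (GGGCGG) at -159 and -100 in *Ndufv2*, YY1 letters (AANATGGC) at -165 in *Ndufs8*, an ETS site of the GABP type (CCGGAAG) at -232 and SP1 letters at -163 and -39 in *Ndufb6*, and an NRF1 site (GCGC, any base, then TGCGC) at -98 in *Ndufs5*, counted from the start. The letters of these 5 motifs, the fifth being the estrogen-related receptor element TNAAGGTCA, were searched on both strands from 250 bases before to 50 after the start, with overlapping matches of different motifs both counted. The table held windows for 34 members, and *Ndufs1*, *Ndufa2*, *Ndufb9* and *Ndufa4l2* were among those with no entry. Of the 36 windows of members, 22.2% held the NRF1 site, against 9.02% of windows of tested genes and 4.60% of all windows. The YY1 letters were in 33.3%, against 8.09% and 6.05%. In *Ndufc1*, *Ndufa3*, *Ndufs7*, *Ndufa9*, *Ndufs6*, *Ndufs4* and *Ndufb8*, the only such letters lay after the start, at positions 22 to 38. The ETS site was in 11.1%, against 16.4% and 8.86%, and the SP1 letters were in 44.4%, against 58.8% and 35.7%. The estrogen-related receptor element was in 1 window, that of *Ndufb4* (2.78%, against 0.749% and 1.28%). Such matches are letters in a window, and binding was not measured here.

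Levels between genes were compared per kilobase of the longest coding transcript, and for *Ndufb1* of its noncoding transcript. Over all 12 libraries, the highest were *Ndufa1* at 77.8, *Ndufa3* at 67.1 and *Ndufb1* at 57.4 CPM per kilobase, all accessory subunits of the membrane arm, and the median of the 37 subunits was 20.1. The ranking depended on the transcript. With the shortest coding transcript, the highest were *Ndufv3* at 125 and *Ndufa6* at 107 CPM per kilobase, both of the N module, then *Ndufa3* at 98.4, and the median was 27.6. With the longest, *Ndufv3* was at 39.0 and *Ndufa6* at 54.3. With the longest transcripts, *Ndufb2* was lowest of the subunits, at 1.03 CPM per kilobase of its 4371-base transcript, and it stood at 9.91 with its 455-base transcript. *Ndufb4* stood at 7.71 and *Ndufa4l2* at 1.11 CPM per kilobase, and each has 1 coding transcript length. With the shortest transcripts, *Ndufb4* was the lowest of the subunits.

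The 37 subunits together took less of the transcriptome in sh*Ppargc1b* cells. Their summed level was 1003, 960 and 1010 CPM in unstimulated shControl and 830, 845 and 873 CPM in unstimulated sh*Ppargc1b* libraries, so the knockdown mean of 850 ± 21.9 (SD, n = 3) was 85.7% of the control mean of 991 ± 27.2. With IFN-β, the sums were 938, 931 and 961 CPM in shControl and 838, 825 and 837 CPM in sh*Ppargc1b* libraries, and the mean of 833 ± 7.31 was 88.3% of 943 ± 15.7. For the 7 core subunits, the knockdown mean was 80.6% of the control mean without and 85.3% with IFN-β. Every sh*Ppargc1b* library lay below every shControl library of the same treatment in both sums, as the plot of summed levels shows.

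**Figure D1:**
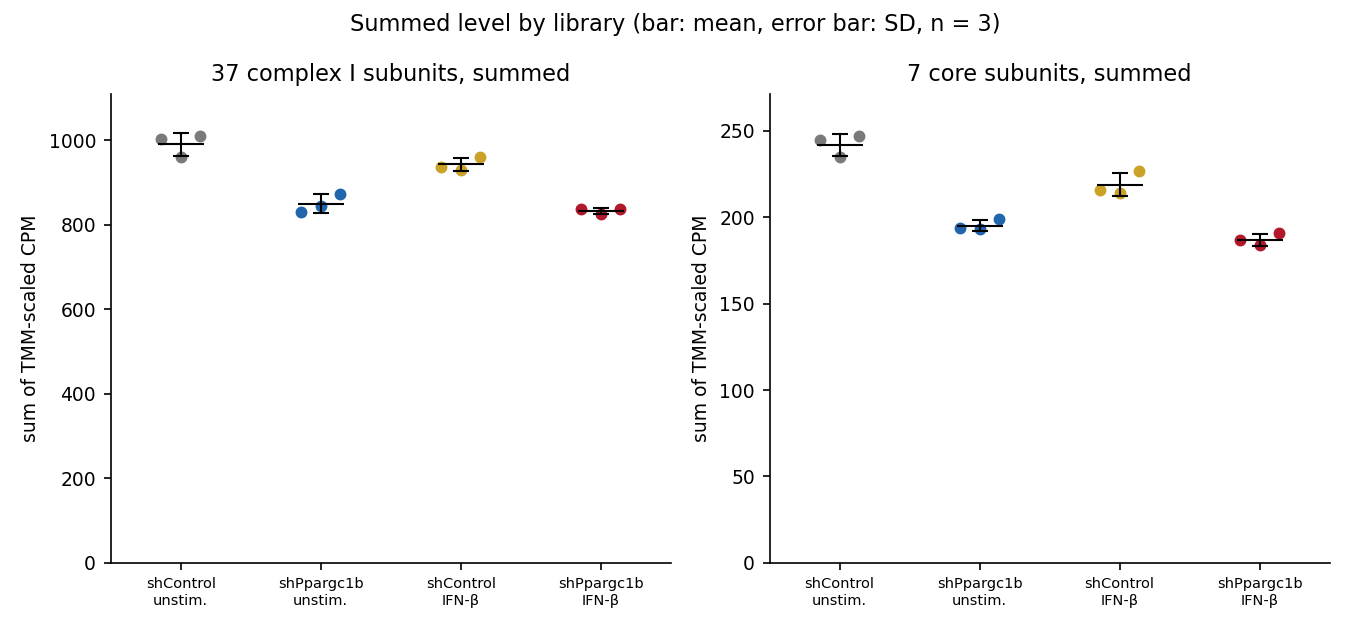
Summed CPM of the 37 complex I subunits (left) and of the 7 core subunits (right) in each library (points), with the mean and SD of 3 libraries per group; the axes start at 0. The unstimulated sh*Ppargc1b* sums of 830 to 873 CPM sit below the shControl sums of 960 to 1010, and the IFN-β sums of 825 to 838 sit below 931 to 961.

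To determine which subunits changed in unstimulated cells, sh*Ppargc1b* was compared with shControl by edgeR's quasi-likelihood test over 18228 genes. Of the 39 members, 21 fell and none rose, against 11.1% of all tested genes that fell and 12.4% that rose. No member was higher at an unadjusted p under 0.05 either, and DESeq2 also called 21 lower and 0 higher. The median log2 fold change of the members was -0.21, against 0.00 for all genes tested, and 37 of the 39 values were below 0, against 50.9% of all genes. The libraries of both groups did not overlap for 26 members, all lower, against 18.4% of genes in that direction. Without *Ndufb1*, 20 of 38 fell, and without *Ndufa4* and *Ndufa4l2*, 20 of 37 fell. The falls were small, and the largest among true subunits was to 67.8% of the control mean. Without unstimulated shControl replicate 1, 16 members fell, the lowest count when each library in turn was left out.

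All 7 core subunits fell, with a median log2 fold change of -0.33. *Ndufs1*, which carries most of the iron-sulphur clusters of the N module, was at 74.5, 72.2 and 74.5 CPM in shControl and at 57.7, 57.4 and 55.6 CPM in sh*Ppargc1b* libraries (-0.37 ± 0.04, adjusted p = 9.0e-06). *Ndufv1*, which binds NADH and FMN, was at 20.8, 18.7 and 21.8 against 15.1, 15.5 and 16.4 CPM (-0.38 ± 0.08, adjusted p = 0.00163). *Ndufv2*, its iron-sulphur partner, was at 40.4, 34.5 and 38.9 against 28.7, 29.0 and 33.2 CPM (-0.32 ± 0.07, adjusted p = 0.00244). In each of these 3 N module subunits, every knockdown library was below every control library.

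Core subunits of the Q module also fell. *Ndufs3*, a scaffold of early assembly, was at 23.2, 22.2 and 22.6 CPM in shControl and at 18.3, 18.3 and 17.2 CPM in sh*Ppargc1b* libraries (-0.34 ± 0.07, adjusted p = 0.00140), and 19.9% of the 100-base stretches of its transcript also occur in the gene model *Gm12251*. *Ndufs7*, which holds the last iron-sulphur cluster before ubiquinone, was at 20.2, 23.5 and 22.2 against 17.9, 17.5 and 17.2 CPM (-0.33 ± 0.08, adjusted p = 0.00518). The groups did not overlap for either gene. *Ndufs8*, an iron-sulphur subunit, was at 13, 11.6 and 13.7 against 11.1, 10.6 and 11.4 CPM (-0.21 ± 0.07, adjusted p = 0.0476). That call was the least firm of those given here, since it was lost in 13 of 17 alternatives, with adjusted p from 0.0193 to 0.286 over all of them and 0.188 without unstimulated shControl replicate 3. The plot of core subunits shows the libraries of all groups.

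**Figure D2:**
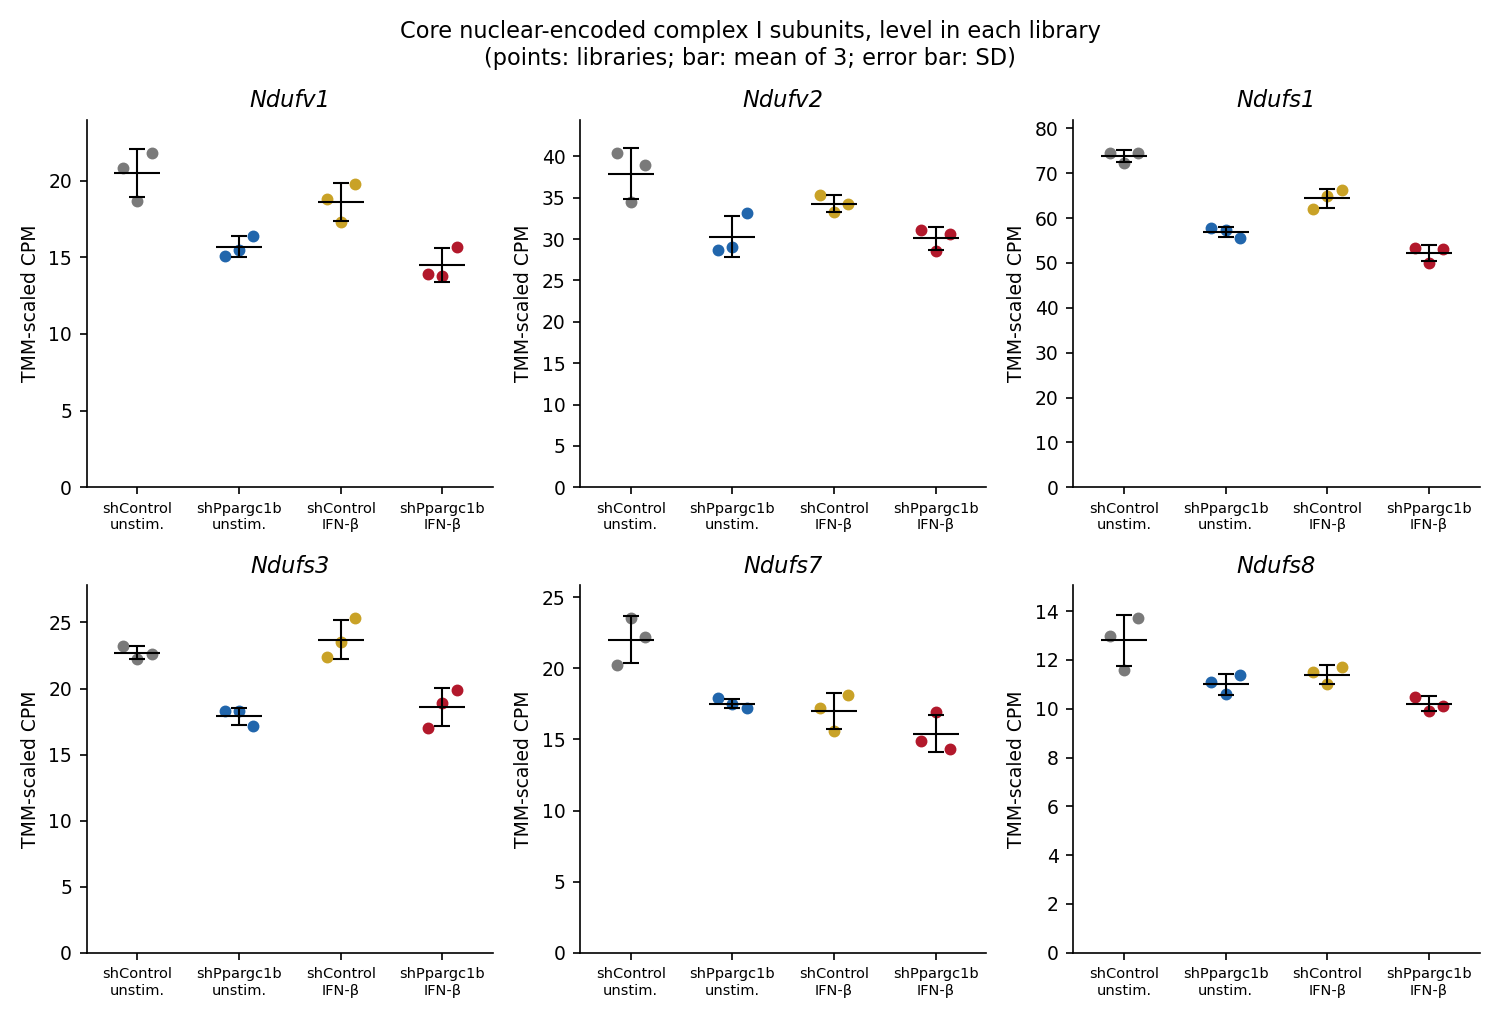
Level of 6 core subunits in CPM (y axes from 0) in each library (points) of the 4 groups (x axes), with the mean and SD of 3 libraries. In unstimulated cells all sh*Ppargc1b* points are below all shControl points in every panel, and with IFN-β the groups overlap for *Ndufs7*, where 16.9 CPM in a knockdown library exceeds 15.6 CPM in a control library.

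The genes of these core subunits lie on GRCm38 at chr1:63143596-63176833 (*Ndufs1*), chr2:90894634-90904827 (*Ndufs3*), chr10:80249121-80256794 (*Ndufs7*), chr17:66078638-66101559 (*Ndufv2*), chr19:3908863-3912774 (*Ndufs8*) and chr19:4007384-4012806 (*Ndufv1*), in GENCODE M21. All are annotated as protein-coding, and *Ndufs7* is on the plus strand and the others are on the minus strand. Exons of genes on the opposite strand cover 4.04% of the exon bases of *Ndufs3* and 6.16% of *Ndufs1*. No source used here says whether counting used strand, so reads there may be unassigned or may belong to the other gene.

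Among 30 accessory subunits, 13 fell, with a median of -0.17. The counts by position are given as a description, and no test compared the positions. Of the 7 accessory subunits of the N module, only *Ndufv3* fell (-0.23 ± 0.05, adjusted p = 0.00484), and the median of the group was -0.06. *Ndufs4*, a phosphoprotein in which mutations cause Leigh syndrome, had a log2 fold change of -0.06 ± 0.07 (adjusted p = 0.639). *Ndufs6*, which holds a zinc ion and joins late in assembly, was at 9.92, 9.86 and 11.1 CPM in shControl and at 10.5, 10.4 and 11.6 CPM in sh*Ppargc1b* libraries (0.08 ± 0.08, adjusted p = 0.541). *Ndufa7* was at 18.4, 18.0 and 18.1 against 18.1, 20.4 and 20.3 CPM (0.11 ± 0.06, adjusted p = 0.181). It was the highest of all members, its groups overlapped, and without unstimulated sh*Ppargc1b* replicate 1 its adjusted p was 0.0462. No test compared the accessory with the core subunits.

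Both accessory subunits of the Q module fell. *Ndufa5* was at 7.33, 6.44 and 9.06 CPM in shControl and at 4.23, 5.56 and 5.69 CPM in sh*Ppargc1b* libraries (-0.55 ± 0.14, adjusted p = 0.0102), the lowest value of the 37 subunits. The groups did not overlap, and the control libraries spread widely, so that without unstimulated shControl replicate 3 the log2 fold change was -0.41 (adjusted p = 0.0617). *Ndufa9*, which binds NADPH and is needed to keep the matrix arm stable, had a log2 fold change of -0.16 ± 0.05 (adjusted p = 0.0347). Its call was lost without any 1 of the 6 unstimulated libraries, with adjusted p from 0.0563 to 0.113.

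In the proximal membrane arm, 3 of 9 accessory subunits fell, namely *Ndufc1* (-0.44 ± 0.08, adjusted p = 0.00123), *Ndufa10* (-0.32 ± 0.05, adjusted p = 1.2e-04) and *Ndufc2* (-0.26 ± 0.05, adjusted p = 0.00193). *Ndufc1* and *Ndufc2* encode neighbours at the membrane base. *Ndufa1*, an early-assembling subunit whose gene is on the X chromosome, was at 34.3, 29.3 and 33.6 CPM in shControl and at 33.0, 30.5 and 32.8 CPM in sh*Ppargc1b* libraries (-0.01 ± 0.06, adjusted p = 0.913). Its groups overlapped fully.

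In the distal arm, 7 of 12 accessory subunits fell and all 12 values were below 0, with a median of -0.26. The lowest was *Ndufb5*, at 35.8, 35.1 and 37.4 CPM in shControl and at 24.0, 26.9 and 27.8 CPM in sh*Ppargc1b* libraries (-0.46 ± 0.06, adjusted p = 2.7e-05). No knockdown library reached the controls, although 12.3% of its exon bases lie under exons of *Mrpl47* on the opposite strand. The others that fell were *Ndufb10* (-0.36 ± 0.08), *Ndufb2* (-0.34 ± 0.12), *Ndufb9* (-0.31 ± 0.08), *Ndufb6* (-0.29 ± 0.09), *Ndufb1* (-0.26 ± 0.06) and *Ndufb8* (-0.26 ± 0.07), with adjusted p from 0.00409 to 0.0434. *Ndufb2* lost its call in 9 of 17 alternatives (adjusted p = 0.157 without unstimulated sh*Ppargc1b* replicate 1). *Ndufb9* lost its call in 3 (adjusted p = 0.0593 without unstimulated shControl replicate 1). *Ndufb6* lost its call in 2 (adjusted p = 0.121 without the same library). *Ndufab1*, the mitochondrial acyl carrier protein that also serves fatty acid and lipoic acid synthesis, had -0.17 ± 0.07 (adjusted p = 0.0891).

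The members that are not complex I subunits differed from each other. *Ndufa4l2*, known as a target of hypoxia-inducible factor, was low, at 1.56, 1.49 and 1.52 CPM in shControl and at 0.898, 0.746 and 0.980 CPM in sh*Ppargc1b* libraries (-0.80 ± 0.20, adjusted p = 0.00761). *Ndufa4* had a log2 fold change of -0.11 ± 0.09 (adjusted p = 0.424). The fall of *Ndufa4l2* was the deepest among the members and rested on few counts.

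With IFN-β, sh*Ppargc1b* was again compared with shControl. Of the 39 members, 14 fell and 1 rose, against 12.7% of tested genes that fell and 11.5% that rose. The median was -0.19, against -0.01 for all genes tested, and 33 values were below 0, against 52.0% of all genes. The libraries did not overlap for 24 members in the lower and 3 in the higher direction, against 20.7% and 18.0% of genes. DESeq2 called 18 lower and 1 higher. Without *Ndufb1*, 13 of 38 fell and 1 rose. Without *Ndufa4* and *Ndufa4l2*, 13 of 37 fell and none rose, and 1 was higher at an unadjusted p under 0.05.

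Of the 7 core subunits, *Ndufs1*, *Ndufv1* and *Ndufs3* fell. *Ndufs1* was at 62.1, 64.9 and 66.2 CPM in shControl and at 53.3, 50 and 53.2 CPM in sh*Ppargc1b* libraries (-0.30 ± 0.04, adjusted p = 7.3e-05). *Ndufv1* was at 18.8, 17.3 and 19.8 against 13.9, 13.8 and 15.7 CPM (-0.36 ± 0.08, adjusted p = 0.00265). *Ndufs3* was at 22.4, 23.5 and 25.3 against 17.0, 18.9 and 19.9 CPM (-0.35 ± 0.07, adjusted p = 0.00106). These 3 had separate groups and falls close in size to those in unstimulated cells.

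*Ndufv2*, *Ndufs7* and *Ndufs8* did not pass. *Ndufv2* was at 35.3, 33.3 and 34.2 against 31.1, 28.5 and 30.6 CPM (-0.19 ± 0.07, adjusted p = 0.0590), and it passed in DESeq2 (adjusted p = 0.0404). *Ndufs8* was at 11.5, 11 and 11.7 against 10.5, 9.90 and 10.1 CPM (-0.17 ± 0.07, adjusted p = 0.116). *Ndufs7* was at 17.2, 15.6 and 18.1 against 14.9, 16.9 and 14.3 CPM (-0.14 ± 0.08, adjusted p = 0.209). Of these 3, only *Ndufs7* had overlapping groups.

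Among the accessory subunits, *Ndufb6* had the lowest value, at 14.9, 14.1 and 14.1 CPM in shControl and at 11, 12.3 and 9.91 CPM in sh*Ppargc1b* libraries (-0.38 ± 0.09, adjusted p = 0.00478). Exons of *Smim27* on the opposite strand cover 39.0% of its exon bases, the most of any member, and the part of that overlap in its counts was not tested. *Ndufa6* had the highest value, at 28, 29.3 and 27.1 against 30.4, 33.3 and 30.0 CPM (0.15 ± 0.06, adjusted p = 0.0831). *Ndufa7* followed, at 18.1, 18.4 and 18.4 against 19.3, 20 and 19.8 CPM (0.11 ± 0.06, adjusted p = 0.206). The groups of both did not overlap, in the higher direction, although neither passed. *Ndufa6* passed in 3 of 17 alternatives, with adjusted p from 0.0408 to 0.0448.

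By role, 1 of 7 accessory subunits of the N module fell (*Ndufv3*, -0.31 ± 0.05), 1 of 2 of the Q module (*Ndufa9*, -0.22 ± 0.05), 3 of 9 of the proximal arm and 5 of 12 of the distal arm. The 3 proximal arm genes were *Ndufc1*, *Ndufa10* and *Ndufc2*, as in unstimulated cells. In the distal arm, *Ndufb1*, *Ndufb5*, *Ndufb6*, *Ndufb7* and *Ndufb11* fell. *Ndufb7* (-0.19 ± 0.06, adjusted p = 0.0278) lost its call in 11 of 17 alternatives, with adjusted p = 0.0877 without IFN-β-treated shControl replicate 3. *Ndufb11* (-0.26 ± 0.07, adjusted p = 0.0158) lost its call without IFN-β-treated sh*Ppargc1b* replicate 1 (adjusted p = 0.0519). *Ndufc1* (-0.30 ± 0.09, adjusted p = 0.0186) lost its call without that library (adjusted p = 0.0679).

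*Ndufa4l2* was at 0.950, 1.51 and 1.22 CPM in shControl and at 0.454, 0.596 and 0.480 CPM in sh*Ppargc1b* libraries (-1.27 ± 0.22, adjusted p = 5.2e-04). *Ndufa4* was at 6.91, 6.63 and 6.12 against 7.30, 8.43 and 8.19 CPM (0.29 ± 0.09, adjusted p = 0.0302). It was the only member that rose with the knockdown, and its call was lost in 5 of 17 alternatives, among them without IFN-β-treated shControl replicate 3 (adjusted p = 0.146) and without IFN-β-treated sh*Ppargc1b* replicate 2 (adjusted p = 0.115). This pair of paralogs thus moved in opposite directions, and neither belongs to complex I.

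**Figure D3:**
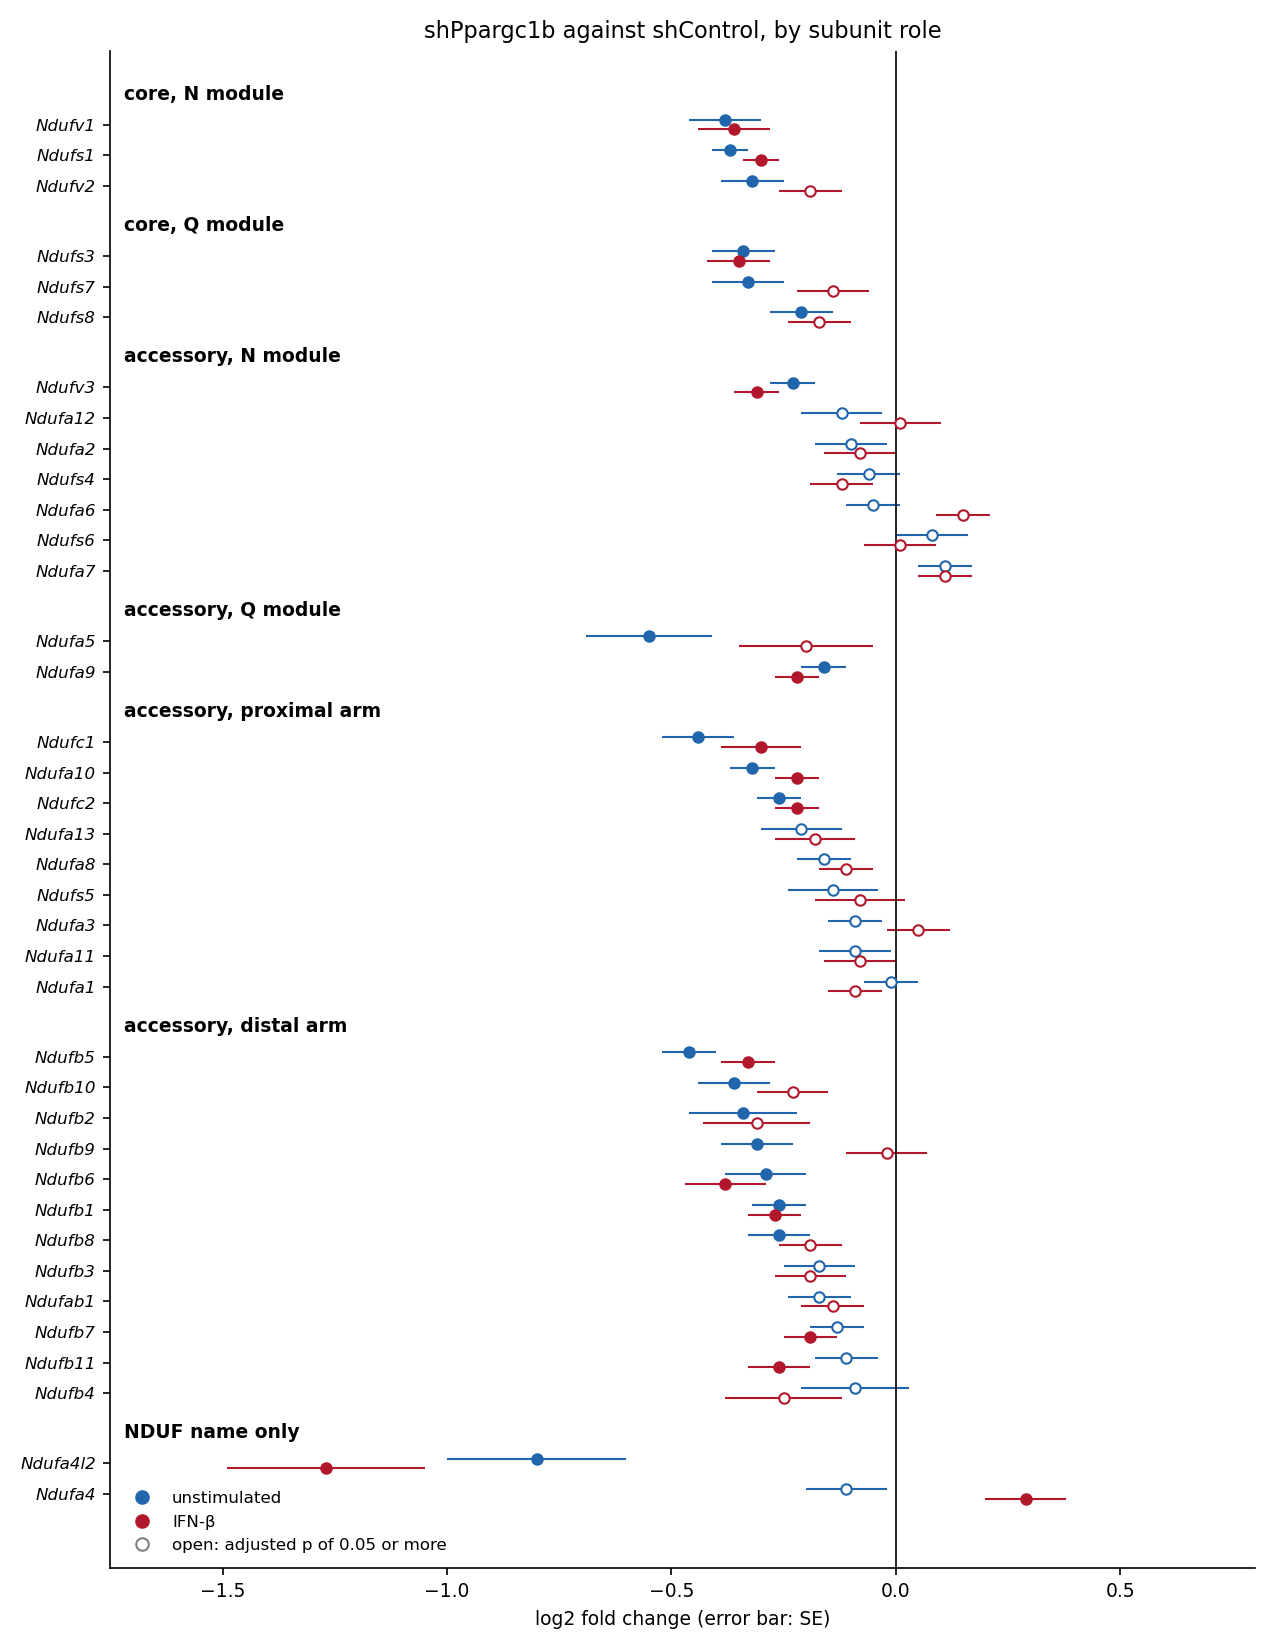
Log2 fold change of sh*Ppargc1b* against shControl (x axis) for 38 members, by role, in unstimulated (blue) and IFN-β-treated (red) cells; error bars are SE and filled points have an adjusted p under 0.05. All core subunits shown are filled and left of 0 in unstimulated cells, and 1 of 7 accessory subunits of the N module is.

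The comparisons without and with IFN-β share no library. In both, 12 members fell, which was 57.1% of the 21 and 85.7% of the 14. The share of all tested genes that fell in both was not taken, so this overlap has no background beside it. The members in the overlap are listed as a description. These 12 were *Ndufv1*, *Ndufs1*, *Ndufs3*, *Ndufv3*, *Ndufa9*, *Ndufa10*, *Ndufc1*, *Ndufc2*, *Ndufb1*, *Ndufb5*, *Ndufb6* and *Ndufa4l2*. Another 9 passed in unstimulated cells alone (among them *Ndufv2*, *Ndufs7*, *Ndufs8*, *Ndufa5*, *Ndufb2*, *Ndufb8*, *Ndufb9*, *Ndufb10*), and *Ndufb7* and *Ndufb11* passed with IFN-β alone. In neither did 16 fall, 6 of them accessory subunits of the N module. The difference between the knockdown effects was tested as an interaction, and no member passed in edgeR or in DESeq2, against 0.730% of all genes in edgeR (0.669% lower and 0.0603% higher). Of the members, 14 of 39 had an interaction below 0, against 50.2% of genes. At an unadjusted p under 0.05, 3 members were higher: *Ndufa4* (0.40 ± 0.13, adjusted p = 0.200), *Ndufb9* (0.28 ± 0.12, adjusted p = 0.414) and *Ndufa6* (0.20 ± 0.08, adjusted p = 0.418). So the members that passed in 1 state alone are not shown to differ between the states.

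To compare the effect of the cytokine itself, IFN-β was set against no treatment within each shRNA. These comparisons share their unstimulated and treated libraries with the knockdown comparisons above. In shControl cells, 14 members fell and 2 rose, against 24.6% and 23.7% of all genes tested, or 48.2% in either direction. The median was -0.14, against -0.03 for all genes, and 27 of 39 values were below 0, against 53.0% of genes. The libraries did not overlap for 15 members in the lower and 3 in the higher direction, against 29.4% and 27.2% of genes. In sh*Ppargc1b* cells, 7 fell and 2 rose, against 21.2% and 21.4% of all genes, or 42.6% in either direction, with a median of -0.06 against -0.02. Values below 0 numbered 25 of 39, against 52.3% of genes, and libraries did not overlap for 9 lower and 2 higher members, against 25.4% and 24.7%. With library totals as the only scaling, the median of all genes was -0.27 and -0.22, and 33 members fell and 1 rose in shControl and 28 fell and 1 rose in sh*Ppargc1b* cells. Relative to all genes, the median of the members was -0.11 under both scalings in shControl, and -0.04 and -0.05 in sh*Ppargc1b* cells. In shControl cells, 8 members fell without IFN-β-treated shControl replicate 2 or replicate 3, and 9 without replicate 1. In sh*Ppargc1b* cells, 2 fell without unstimulated sh*Ppargc1b* replicate 2, 3 without unstimulated sh*Ppargc1b* replicate 3 and 4 without IFN-β-treated sh*Ppargc1b* replicate 1.

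The risers with IFN-β were *Ndufs4* and *Ndufb1* in both. Without the *Ndufb1* row, 14 of 38 fell and 1 rose in shControl, and 7 fell and 1 rose in sh*Ppargc1b* cells. *Ndufs4* went from 23.1 ± 2.66 to 31.8 ± 0.435 CPM in shControl (SD, n = 3; 0.46 ± 0.07, adjusted p = 4.6e-05) and from 22.3 ± 0.884 to 29.3 ± 0.810 CPM in sh*Ppargc1b* cells (0.39 ± 0.07, adjusted p = 2.5e-04). *Ndufb1* went from 47.2 ± 2.39 to 60.7 ± 4.49 CPM (0.36 ± 0.06, adjusted p = 1.8e-04) and from 39.3 ± 1.72 to 50.5 ± 3.43 CPM (0.36 ± 0.06, adjusted p = 2.7e-04). The rise of *Ndufb1* did not pass with library totals, at adjusted p = 0.110 in shControl and 0.0513 in sh*Ppargc1b* cells. After these, the highest was *Ndufb3* in shControl, from 10.6 ± 0.590 to 11.3 ± 0.230 CPM (0.09 ± 0.08, adjusted p = 0.359), and *Ndufa13*, known as GRIM-19 and first described as an interferon- and retinoid-induced cell death gene, in sh*Ppargc1b* cells, from 33.7 ± 2.12 to 36.3 ± 2.78 CPM (0.11 ± 0.09, adjusted p = 0.353).

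Of those that fell in shControl cells, *Ndufa4* was lowest, from 8.80 ± 0.543 to 6.56 ± 0.402 CPM (-0.43 ± 0.09, adjusted p = 9.2e-04). *Ndufb10* went from 22.6 ± 1.88 to 17.2 ± 0.626 CPM (-0.40 ± 0.08, adjusted p = 7.6e-04), and *Ndufs7* went from 22 ± 1.66 to 17.0 ± 1.27 CPM (-0.37 ± 0.08, adjusted p = 8.4e-04). In sh*Ppargc1b* cells the lowest were *Ndufa4l2*, from 0.875 ± 0.119 to 0.510 ± 0.0755 CPM (-0.77 ± 0.22, adjusted p = 0.0104), *Ndufb2*, from 4.44 ± 0.482 to 3.54 ± 0.579 CPM (-0.33 ± 0.12, adjusted p = 0.0378), and *Ndufb10*, from 17.6 ± 2.0 to 14.7 ± 0.518 CPM (-0.26 ± 0.08, adjusted p = 0.0172). *Ndufb10* thus fell with IFN-β in both, although in sh*Ppargc1b* cells its call was lost without unstimulated sh*Ppargc1b* replicate 2 (adjusted p = 0.0719), unstimulated sh*Ppargc1b* replicate 3 (adjusted p = 0.0931) or IFN-β-treated sh*Ppargc1b* replicate 2 (adjusted p = 0.0546). *Ndufb2* lost its call in 7 of 17 alternatives, with adjusted p = 0.159 without unstimulated sh*Ppargc1b* replicate 3.

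**Figure D4:**
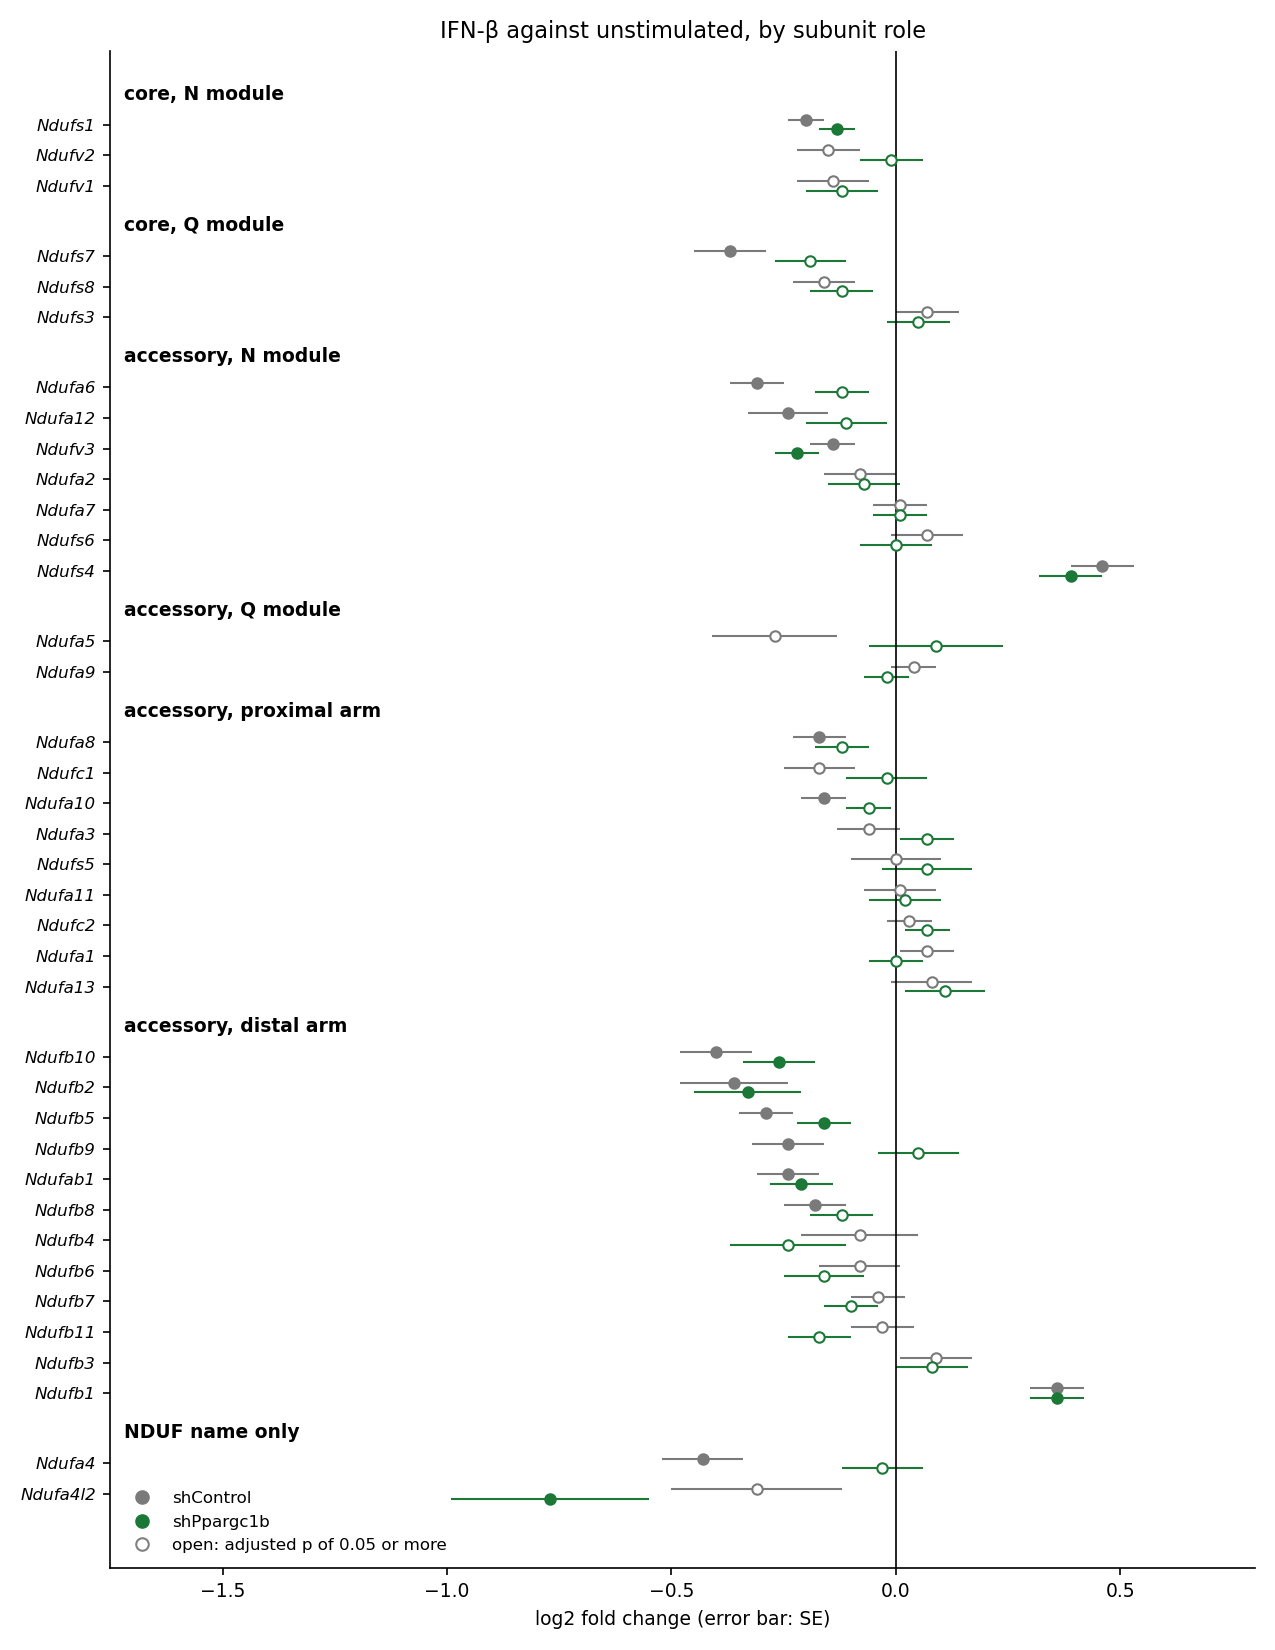
Log2 fold change of IFN-β against unstimulated (x axis) for 38 members, by role, in shControl (grey) and sh*Ppargc1b* (green) cells; error bars are SE and filled points have an adjusted p under 0.05. *Ndufs4* (0.46 and 0.39) and *Ndufb1* (0.36 and 0.36) are the filled points right of 0, and with library totals *Ndufb1* stays right of 0 but does not pass.

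To place the subunits in the respiratory chain, lists of related genes were read from the same fit. Complex I needs assembly factors, which build it and are not part of it. In unstimulated cells, 1 of 18 tested assembly factors fell with the knockdown (*Dmac2*, -0.58 ± 0.08, adjusted p = 8.3e-05) and 1 rose (*Tmem70*, 0.23 ± 0.06, adjusted p = 0.0141), with a median of -0.01. Next to these were *Ndufaf2* at -0.22 ± 0.21 and *Tmem186* at 0.19 ± 0.09, which did not pass. With IFN-β, 3 of the 18 fell and 1 rose in sh*Ppargc1b* against shControl cells. Of all tested genes, 11.1% fell and 12.4% rose without IFN-β, and 12.7% fell and 11.5% rose with it.

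The assembly factors were also read for the effect of IFN-β itself. In shControl cells 9 of 18 fell and 1 rose, against 24.6% and 23.7% of all genes, with a median of -0.30 against -0.03. In sh*Ppargc1b* cells 6 fell and 1 rose, against 21.2% and 21.4%, with a median of -0.25 against -0.02. In either direction, 10 and 7 of 18 passed, against 48.2% and 42.6% of all genes. *Ndufaf4*, named after its values were seen, had a log2 fold change of -1.52 ± 0.15 (adjusted p = 6.2e-07) in shControl cells, and *Foxred1*, also named afterwards, had 0.85 ± 0.06 (adjusted p = 4.0e-09). The 37 subunit genes had values between -0.40 and 0.46 in the same comparison.

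Mitochondrially encoded subunits of the membrane arm were read for 5 genes, since *mt-Nd3* and *mt-Nd4l* were too low to be tested. In unstimulated cells, *mt-Nd6* fell with the knockdown (-0.26 ± 0.07, adjusted p = 0.00839), *mt-Nd5* was at -0.18 ± 0.08, *mt-Nd2* and *mt-Nd4* were at -0.15, and *mt-Nd1* was at -0.04 ± 0.08, none of which passed. With IFN-β, *mt-Nd6* fell (-0.26 ± 0.07, adjusted p = 0.00978), while *mt-Nd1* (0.29 ± 0.08, adjusted p = 0.0112), *mt-Nd2* (0.29 ± 0.08, adjusted p = 0.0109) and *mt-Nd4* (0.23 ± 0.07, adjusted p = 0.0187) rose. None of the 37 nuclear-encoded subunits passed as higher in that comparison in the main fit, although *Ndufa6* did in 3 of 17 alternatives. *mt-Nd6* is the subunit gene on the other strand of the mitochondrial genome.

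Genes of the other respiratory complexes also fell with the knockdown. In unstimulated cells, 4 of 4 genes of complex II, which oxidises succinate, fell with a median of -0.46, from *Sdha* (-0.53 ± 0.04) and *Sdhd* (-0.49 ± 0.04) to *Sdhb* (-0.42 ± 0.06) and *Sdhc* (-0.26 ± 0.05). All 9 nuclear-encoded genes of complex III fell (median -0.37), from *Uqcrh* (-0.60 ± 0.06) and *Cyc1* (-0.43 ± 0.06) to *Uqcrb* (-0.28 ± 0.05) and *Uqcrq* (-0.28 ± 0.06). Of 10 genes of complex IV, 9 fell (median -0.33), with *Cox8a* lowest (-0.53 ± 0.08) and *Cox7c* highest (-0.10 ± 0.06, adjusted p = 0.282). Of 15 ATP synthase genes, 12 fell (median -0.34), with *Atp5o* (-0.66 ± 0.08) and *Atp5g3* (-0.57 ± 0.04) lowest, and *Atp5g1* (-0.07 ± 0.06, adjusted p = 0.480) and *Atp5e* (-0.13 ± 0.07, adjusted p = 0.244) highest. None of these lists had a member that rose. With IFN-β, 4 of 4, 7 of 9, 9 of 10 and 11 of 15 fell in these lists. The medians of complex I, -0.21 without and -0.19 with IFN-β, were nearer to 0 than those of all 4 lists, and no test compared the lists.

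**Figure D5:**
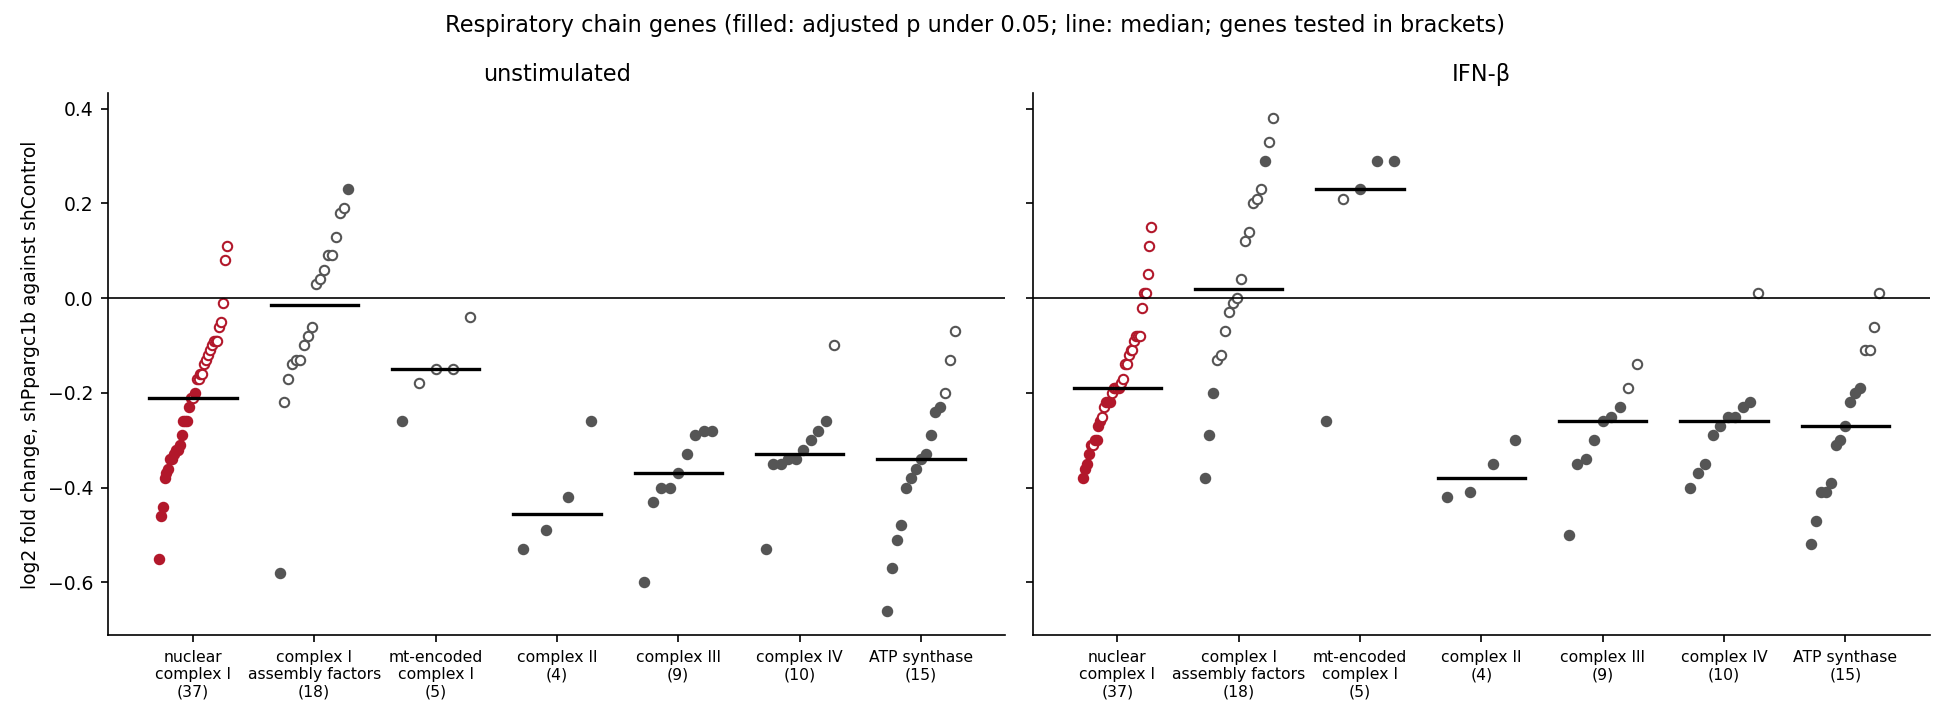
Log2 fold change of sh*Ppargc1b* against shControl (y axis) for each tested gene of the 37 nuclear-encoded complex I subunits (red) and of 6 related lists (grey), in unstimulated (left) and IFN-β-treated cells (right); lines are medians and filled points have an adjusted p under 0.05. The median of complex I is -0.21 on the left, against -0.46 to -0.33 for complexes II to IV and ATP synthase and -0.01 for assembly factors.

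Among 8 tested activators of respiratory genes, *Esrra*, which encodes the estrogen-related receptor α, fell with the knockdown in unstimulated cells (-0.21 ± 0.04, adjusted p = 0.00241) and in IFN-β-treated cells (-0.34 ± 0.04, adjusted p = 3.3e-05). *Gabpa*, the DNA-binding subunit of GABP, fell in both (-0.15 ± 0.04 in each, adjusted p = 0.0139 and 0.0129). *Pprc1* (0.21 ± 0.10, adjusted p = 0.155) and *Gabpb1* (0.11 ± 0.06, adjusted p = 0.226) were highest without IFN-β. With IFN-β, *Pprc1* rose (0.47 ± 0.11, adjusted p = 0.00440), and *Tfam*, named after its values were seen, fell (-0.23 ± 0.07, adjusted p = 0.0263). Of the 8, 2 fell and none rose without IFN-β, against 11.1% and 12.4% of all genes. With it, 3 fell and 1 rose, against 12.7% and 11.5%. *Ppargc1a*, the other main PGC-1 gene, was too low to be tested. Of 12 genes for supercomplexes and iron-sulphur supply, 3 fell in unstimulated cells, where 11.1% of all genes fell: *Hscb* (-0.33 ± 0.10), *Cox7a2l* (-0.32 ± 0.08) and *Higd2a* (-0.22 ± 0.07), the last named after its values were seen. The highest was *Lyrm4* (0.18 ± 0.08, adjusted p = 0.130). With IFN-β, *Hscb*, *Cox7a2l* and *Higd2a* did not pass. There 2 of the 12 fell and 1 rose, namely *Iscu* (0.29 ± 0.06, adjusted p = 0.00289), also named afterwards, against 12.7% and 11.5% of all genes.

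The members that fell were set against their promoter letters and length as a description. Of all tested genes, 11.1% fell in unstimulated cells, and their share with or without each motif was not taken. In unstimulated cells, 1 of 7 members with the NRF1 site fell and 16 of 27 without it, and 3 of 4 with the ETS site fell and 14 of 30 without. With YY1 letters 7 of 12 fell and 10 of 22 without, with SP1 letters 7 of 15 fell and 10 of 19 without, and the member with the estrogen-related receptor element did not pass, while 17 of 33 without it fell. The log2 fold change of the knockdown ran with the length of the longest coding transcript (*Ndufb1* by its noncoding one), with Spearman's rho of -0.46 over the 39 members without and -0.44 with IFN-β, against -0.01 over 13078 protein-coding genes without IFN-β. The points share all libraries. With the shortest coding transcript rho was -0.20 and -0.29, and with the coding length, over 38 members, -0.33 and -0.29. The strength of that relation therefore depended on which length was used. Against the mean level, rho was 0.01 and -0.07.

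All 8 dendritic cell markers were expressed well enough to be tested. Some markers of culture composition moved with the knockdown beside these results. For scale, 11.1% of all tested genes fell and 12.4% rose without IFN-β, and 12.7% fell and 11.5% rose with it. Of 8 dendritic cell markers, 5 were higher without and 6 with IFN-β, and their summed level ranged from 3775 to 4415 CPM in unstimulated shControl and from 4370 to 5022 CPM in unstimulated sh*Ppargc1b* libraries. Macrophage markers summed to 2574 to 2738 against 2356 to 2440 CPM (2 of 8 lower, 1 higher), and neutrophil markers to 42.6 to 94.7 against 91.6 to 160 CPM (1 of 8 higher). Within both lists the genes were mixed, since 4 of 8 values were below 0 in each. The largest macrophage fall was that of *Mrc1*, from 307 ± 34.7 to 107 ± 12.3 CPM, while *Cd14* rose (0.44 ± 0.06, adjusted p = 7.0e-05). The neutrophil ranges overlapped. Markers of mast cells or basophils summed to 8.42 to 16.7 against 19.0 to 22.8 CPM (2 of 6 higher), and of 6 proliferation genes, which summed to 288 to 387 against 190 to 306 CPM, *Mki67* fell. With IFN-β, the ranges in shControl against sh*Ppargc1b* libraries were 3582 to 4343 against 4304 to 4994 CPM for dendritic cell, 2707 to 2885 against 2382 to 2560 for macrophage, 34.1 to 84.4 against 76.7 to 144 for neutrophil, 9.81 to 15.7 against 14 to 21.2 for mast cell or basophil and 209 to 237 against 140 to 219 for proliferation markers. Lymphocyte markers summed to under 1 CPM and erythroid markers to at most 0.338 CPM in every library, and *Hba-a1* had at most 1 count. The part of these markers in the falls of the complex I genes was not tested.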

How the data were processed

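RNA-seq was performed on 12 libraries of mouse DCs in 4 groups of 3, as the labels assign them. Replicate numbers are not in the labels, and the ones used here follow accession order and were not used to pair libraries. The files as deposited held unnormalised counts per GENCODE gene, which the authors obtained by depleting ribosomal RNA, trimming with Trim Galore 0.6.0, mapping to mm10 with STAR 2.7.8a (versions from the submitters' processing notes) and counting with STAR. Reads from sequence present in more than 1 place are not counted that way. All value columns were used.

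Tests used edgeR 4.0.16 (R 4.3.3), the tool the study also used. Genes were kept by filterByExpr (minimum count 10, minimum total 15), which left 18228 genes. TMM factors were 1.07 to 1.09 without IFN-β and 0.914 to 0.941 with it. All 12 libraries entered a single quasi-likelihood fit with a coefficient per group, from which each contrast was taken with an F-test. Benjamini-Hochberg adjustment ran over the 18228 genes, and 0.05 was the limit for a call. Adjusted p-values in the text are from this edgeR test unless DESeq2 (1.42.0) is named. Errors of log2 fold changes are SE and errors of means are SD over 3 libraries. CPM are TMM-scaled. The script was tested on simulated data.

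Alternatives were other size factors (RLE), library totals, no filter (all genes with at least 1 count), DESeq2, only the compared groups, and leaving out each library in turn, 17 per contrast. Gene positions, lengths and shared 100-base stretches were taken from GENCODE M21, and promoter windows from RefSeq.

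The members, their roles, 8 pathway lists and 7 marker lists were written from general knowledge, and were chosen with earlier results of these data known. Values in every library were given for core subunits and for the members with the 3 lowest and 3 highest log2 fold changes in each knockdown contrast. For IFN-β, the same extremes were given by group means, and of each pathway list the 2 lowest and 2 highest by the knockdown without IFN-β were named. Values of some genes that this rule names are not reported here, and those genes are not drawn by name.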

Additional observations from a re-analysis of the deposited data

How the results depend on the processing

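In unstimulated cells, between 16 and 22 members fell with the knockdown when each library was left out in turn, and 0 or 1 rose. Of the 21 calls, 15 were kept under all 17 alternatives. With IFN-β, between 12 and 15 fell and between 0 and 2 rose on leaving out a library, and 11 of the 15 calls were kept under all alternatives. The count that rose with IFN-β was 2 with library totals and 0 with all genes of at least 1 count. For IFN-β in shControl cells, library totals gave 33 lower, 1 higher and a median of -0.38, and leaving out a library gave 8 to 18 lower and a median of -0.16 to -0.07. For IFN-β in sh*Ppargc1b* cells, library totals gave 28 lower, 1 higher and a median of -0.27. There, all genes of at least 1 count gave 4 lower, only the compared groups gave 3 lower, and leaving out a library gave 2 to 7 lower. With library totals the IFN-β effect in shControl cells turned from at or above 0 to -0.20 for *Ndufa9*, -0.23 for *Ndufa11*, -0.17 for *Ndufs3*, -0.17 for *Ndufa1*, -0.21 for *Ndufc2* and -0.23 for *Ndufa7*, and in sh*Ppargc1b* cells to -0.20 for *Ndufs6* and -0.20 for *Ndufa7*. Library totals lower all genes together in IFN-β-treated libraries by construction, and the cause of the other changes was not tested. No interaction call arose under any of 16 alternatives. No paired analysis was run, because the labels carry no replicate numbers and do not say which libraries belong together. In accession order the libraries run in sets with 1 of each group, and a fit blocked on these sets was not run. At 49.9 to 77.7 M counts, *Ndufa4l2*, with 23 counts in its lowest library, had the fewest counts of the members.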
